A study of Mus musculus with 30 samples.

Results

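The genes of MHC class II antigen presentation were followed across sorted spleen cells of wild-type and TLR7.1 mice. Members were chosen by name as 7 genes: H2-Aa, H2-Ab1 and H2-Eb1, Cd74, H2-DMa and H2-DMb1, and Ciita. They are 7 of the 37991 gene identifiers in the deposited count table and of the 20439 with any count, and all 7 were among the 11030 genes that passed the filter on low counts. On GRCm38 the chromosome 17 members lie at 34282744 to 34287823 (H2-Aa, minus strand), 34257689 to 34269419 (H2-Ab1), 34305867 to 34316674 (H2-Eb1), 34119541 to 34139101 (H2-DMa) and 34153072 to 34160230 (H2-DMb1), the last 4 on the plus strand. Ciita lies on chromosome 16 at 10480059 to 10528418 on the plus strand, and Cd74 on chromosome 18.

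MHC class II molecules are surface heterodimers that show peptides from ingested protein to CD4 T cells. The chains assemble in the endoplasmic reticulum with the invariant chain, which blocks the peptide groove until proteases in endosomes cut it away, and H2-DM then exchanges the remaining fragment for other peptides. Transcription of these genes depends on the coactivator CIITA, which docks on an enhanceosome of RFX, CREB and NF-Y proteins bound at the X and Y boxes of class II promoters. B cells, dendritic cells and macrophages are the main carriers of class II in the spleen. B6 mice make no surface I-E molecule because the I-E alpha gene is defective, but they transcribe H2-Eb1.

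The data are bulk RNA-seq counts of 30 libraries from 12 female mice of 9.4 to 15.7 weeks, with 500 cells sorted per library. TLR7.1 mice are named in the series title as TLR7 overexpressing, and the labels do not state the promoter or copy number of that allele. The mice carried no agent or treatment named in the labels. In TLR7.1 mice 3 populations were sorted, and in WT B6 mice the last 2 of them. The iHPC (inflammatory hemophagocytes) were taken as CD11b+ and CD31hi cells with low VCAM and F4/80 that lacked Ly6C. The RPM (red pulp macrophages) were VCAMhi, F4/80+, CD31low and likewise without Ly6C, with CD11b absent or intermediate, and the Mono (monocytes) were positive for Ly6C, Ccr2 and CD11b. All 3 gates required live CD45.2+ cells without SiglecF or Ly6G. This gives 5 groups of 6 libraries: TLR7.1 iHPC, TLR7.1 RPM, TLR7.1 Mono, WT RPM and WT Mono. Within a genotype each mouse gave 1 library of each population, so the 6 mice are the replicates. No gate used an MHC class II antibody.

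The 30 libraries held 95002 to 1932427 counts each (median 1157458.5), and the Mono libraries were the deepest, at 1157446 counts or more. The RPM libraries were shallower, with medians of 820242 counts in TLR7.1 RPM and 544757 counts in WT RPM. Of the 5 libraries under 500000 counts, 2 were WT RPM (mice 24323 and 24416), 2 were TLR7.1 RPM (mice 24068 and 24380) and 1 was TLR7.1 iHPC (mouse 24380). Tlr7 was higher in TLR7.1 Mono than in WT Mono (log2 fold change 1.70 ± 0.22 SE) and higher in TLR7.1 RPM than in WT RPM (2.17 ± 0.23), without overlap of libraries. The 10 classical monocyte markers summed to a median of 7730 CPM (read counts scaled to a common library total) in TLR7.1 Mono and 7301 CPM in WT Mono, against 412 CPM or less in the other groups. The 13 red pulp macrophage markers summed to a median of 13739 CPM in TLR7.1 RPM and 18073 CPM in WT RPM, and to 3499 CPM in TLR7.1 iHPC. Levels below are normalised CPM, scaled by the trimmed mean of M values (TMM). Fold changes come from edgeR's quasi-likelihood test over 11030 genes, and a gene was called at a Benjamini-Hochberg adjusted p under 0.05. Intervals are 95% intervals from the standard errors. In bulk libraries, fewer cells of a type and less RNA per cell cannot be told apart.

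The Y box core GATTGG, the letters that NF-Y binds, stood close to the start in 3 of the members that have a promoter sequence. Of the 7 members, H2-Aa, H2-Eb1, H2-DMa and H2-DMb1 had an entry in the RefSeq promoter table, and H2-Ab1, Cd74 and Ciita are named without sequence. The 150 bases before the start of H2-Aa, H2-Eb1 and H2-DMb1 are printed 5′ to 3′ on the gene's strand, from RefSeq on GRCm38.p6. They show where these letters lie in genes that share the class II regulator, and H2-DMb2, the near copy of H2-DMb1, is set beside them. Capitals mark GATTGG or its reverse complement CCAATC. The RefSeq start of H2-DMb1 lies inside the GENCODE span given above, so its window lies partly within that span.
H2-Aa, chr17:34287824-34287973, minus strand: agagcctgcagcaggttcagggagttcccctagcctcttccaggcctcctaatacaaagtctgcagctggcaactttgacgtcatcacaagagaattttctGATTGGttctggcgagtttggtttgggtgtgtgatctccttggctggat
H2-Eb1, chr17:34305717-34305866, plus strand: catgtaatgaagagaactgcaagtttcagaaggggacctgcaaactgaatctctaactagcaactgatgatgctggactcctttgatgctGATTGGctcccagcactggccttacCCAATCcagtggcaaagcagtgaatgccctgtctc
H2-DMb1, chr17:34153041-34153190, plus strand: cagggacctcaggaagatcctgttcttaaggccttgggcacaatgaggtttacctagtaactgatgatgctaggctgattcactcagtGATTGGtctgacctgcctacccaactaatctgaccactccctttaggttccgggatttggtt
H2-DMb2, chr17:34145099-34145248, plus strand: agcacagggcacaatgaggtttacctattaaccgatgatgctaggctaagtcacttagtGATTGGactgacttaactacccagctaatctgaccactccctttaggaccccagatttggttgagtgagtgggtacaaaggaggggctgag

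GATTGG began 49 bases before the start in H2-Aa, 60 bases before it in H2-Eb1, 62 bases before it in H2-DMb1 and 91 bases before it in H2-DMb2. H2-Eb1 also held the reverse complement, 35 bases before its start. H2-DMa has 2 RefSeq starts: the 250 bases before one hold no match, and before the other a match lies 199 bases upstream. Both starts lie inside the span given above for H2-DMa. Either letter order of this motif occurs in 14.6% of the 32851 promoter windows of 250 bases in the table. The 3′ part of the X box, searched as ACAGATG or CATCTGT without overlap with the Y box core, occurs in 4.15% of them and among these genes in H2-Aa, 232 bases before the start on the opposite strand. A match describes the letters and shows no bound factor. Only these exact letters were searched, so the X box match in H2-Aa need not be its X box. A gene without a match may hold an X box of other letters.

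Per transcript length, the invariant chain and the I-A chains were the most abundant members and Ciita the least abundant. In TLR7.1 iHPC the mean level in normalised CPM per kilobase of transcript was 603 for Cd74, 569 for H2-Ab1, 555 for H2-Aa, 365 for H2-Eb1, 166 for H2-DMa, 86.7 for H2-DMb1 and 2.67 for Ciita. In TLR7.1 Mono the same order held, with 937 for Cd74, 880.0 for H2-Ab1, 771 for H2-Aa, 425 for H2-Eb1, 369 for H2-DMa, 289 for H2-DMb1 and 18.9 for Ciita. TLR7.1 iHPC had the lowest mean of the 5 groups for each of the 7 members. WT RPM had the highest mean for H2-Aa, H2-Ab1, H2-Eb1 and Cd74. TLR7.1 Mono had it for H2-DMb1 and Ciita, and WT Mono for H2-DMa.

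**Figure D1:**
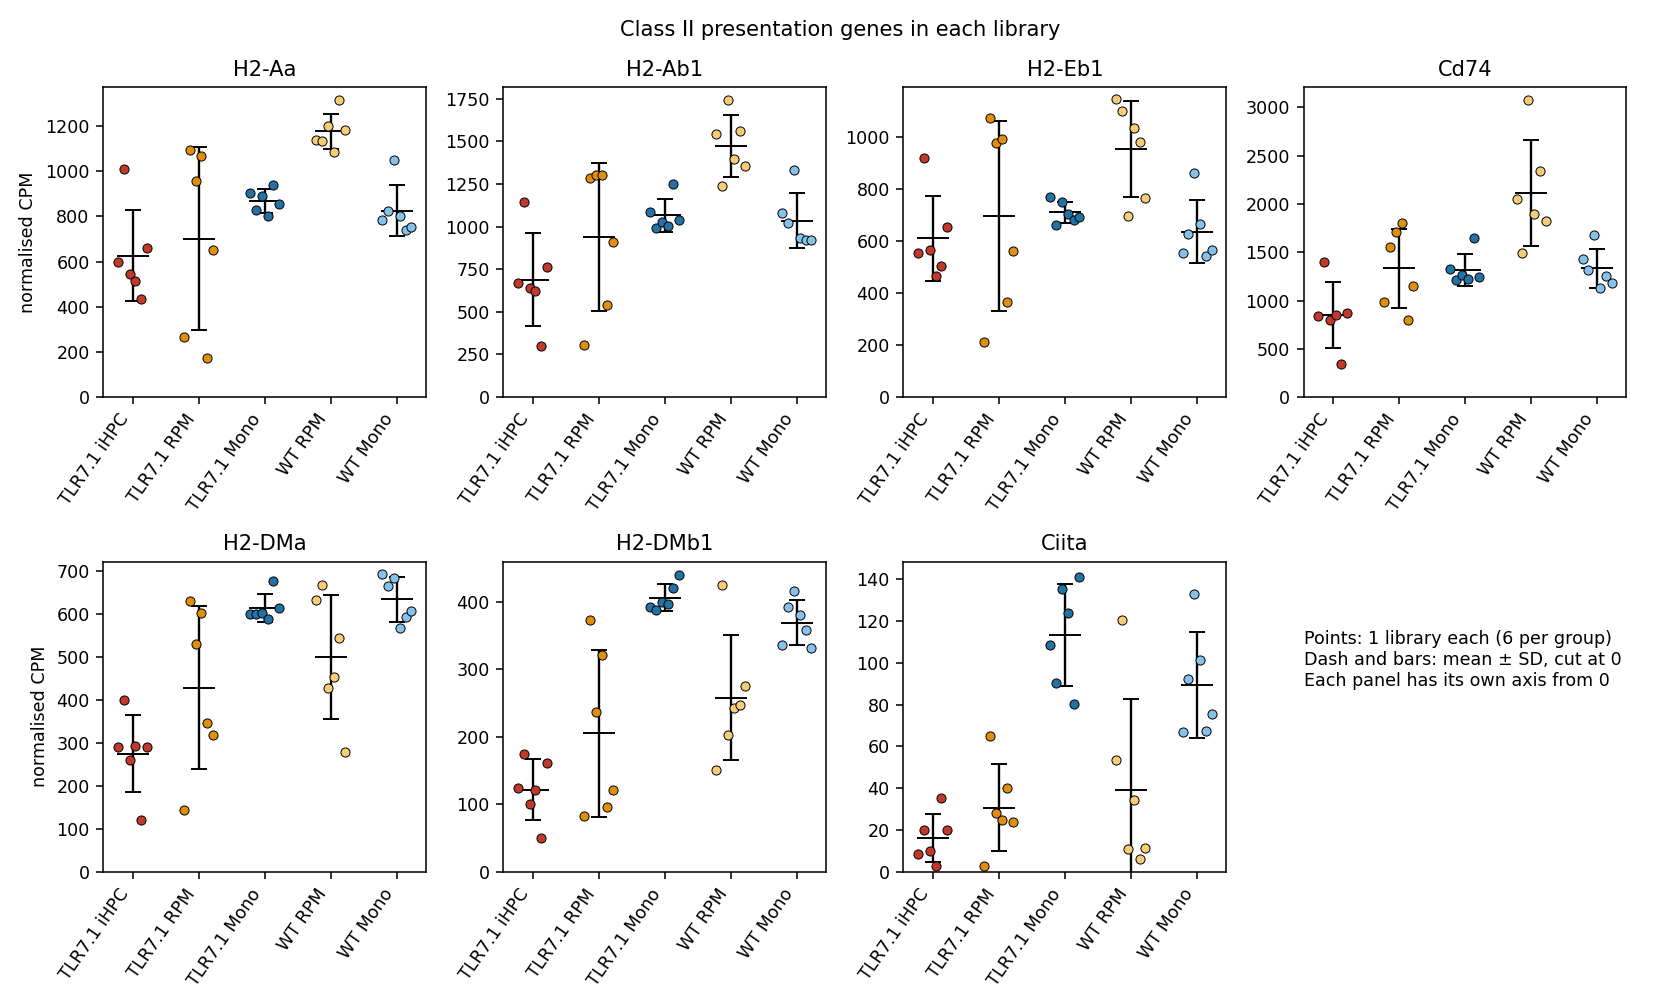
Normalised CPM (vertical axis, 1 panel and 1 scale per gene) of the 7 class II genes in each of 30 libraries, in the groups TLR7.1 iHPC, TLR7.1 RPM, TLR7.1 Mono, WT RPM and WT Mono; points are libraries and bars are mean ± SD, cut at 0. For Ciita the 6 TLR7.1 iHPC libraries lie at 35.2 CPM or below and all 12 Mono libraries at 66.7 CPM or above; for H2-Aa the TLR7.1 RPM libraries spread from 175 to 1092 CPM.

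H2-Aa and H2-Ab1 form I-A, the class II molecule of B6 mice, and the libraries of both spread most in TLR7.1 RPM. H2-Aa (alpha chain) had a lowest, median and highest level of 433, 572 and 1009 CPM in TLR7.1 iHPC, 175, 804 and 1092 CPM in TLR7.1 RPM, and 799.9, 872 and 939.9 CPM in TLR7.1 Mono. In WT mice these were 1086, 1162 and 1315 CPM in WT RPM and 738, 793 and 1048 CPM in WT Mono. All WT RPM libraries were above all WT Mono libraries, while iHPC overlapped every TLR7.1 group. The lowest TLR7.1 RPM values were 175 and 268 CPM, in the shallow libraries of mice 24380 and 24068.

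H2-Ab1 (beta chain) had a lowest, median and highest level of 299, 656 and 1142 CPM in TLR7.1 iHPC, 307, 1097 and 1303 CPM in TLR7.1 RPM, and 992, 1032 and 1252 CPM in TLR7.1 Mono. The WT values were 1238, 1469 and 1745 CPM in WT RPM and 922, 977 and 1334 CPM in WT Mono. The groups overlapped in every pair compared. In iHPC 5 of the 6 libraries lay below all TLR7.1 Mono libraries, and the library of mouse 24107 lay among them.

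H2-Eb1, the beta chain of I-E, had a lowest, median and highest level of 464, 559 and 917 CPM in TLR7.1 iHPC, 211, 767 and 1071 CPM in TLR7.1 RPM, and 662, 698 and 768 CPM in TLR7.1 Mono. Among WT libraries they were 696, 1007 and 1143 CPM in WT RPM and 543, 596 and 859 CPM in WT Mono. The groups overlapped in every pair compared.

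Cd74 encodes the invariant chain, which is also a receptor subunit for the cytokine Mif. It had a lowest, median and highest level of 338, 846 and 1401 CPM in TLR7.1 iHPC, 797, 1353 and 1799 CPM in TLR7.1 RPM, and 1214, 1257 and 1646 CPM in TLR7.1 Mono. For WT mice they were 1489, 1974 and 3072 CPM in WT RPM and 1132, 1286 and 1675 CPM in WT Mono. In iHPC 5 of the 6 libraries lay below all TLR7.1 Mono libraries. In WT RPM the shallowest library had the highest value, 3072 CPM at a total of 95002 counts, and the deepest had the lowest, 1489 CPM at 1511480 counts.

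H2-DMa and H2-DMb1 form H2-DM, the peptide editor. H2-DMa had a lowest, median and highest level of 119.7, 289 and 398 CPM in TLR7.1 iHPC, 143, 438 and 629 CPM in TLR7.1 RPM, and 588, 599.9 and 677 CPM in TLR7.1 Mono. The corresponding WT values were 278, 498 and 666 CPM in WT RPM and 566, 635 and 692 CPM in WT Mono. All iHPC libraries were below all Mono libraries, and the RPM libraries reached from the range of iHPC into that of Mono.

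H2-DMb1 had a lowest, median and highest level of 49.3, 123 and 174 CPM in TLR7.1 iHPC, 83.3, 179 and 374 CPM in TLR7.1 RPM, and 388, 399 and 439.8 CPM in TLR7.1 Mono. Its WT values were 151, 245 and 425 CPM in WT RPM and 331, 370.0 and 416 CPM in WT Mono. All iHPC and all TLR7.1 RPM libraries were below all TLR7.1 Mono libraries. How the counting shared reads between H2-DMb1 and H2-DMb2 is not given in the sources used here, so the level of each is uncertain.

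Ciita, the class II transactivator, had a lowest, median and highest level of 2.78, 14.9 and 35.2 CPM in TLR7.1 iHPC, 2.60, 26.5 and 65.1 CPM in TLR7.1 RPM, and 80.2, 116 and 141 CPM in TLR7.1 Mono. In WT libraries the values were 5.98, 22.8 and 120.3 CPM in WT RPM and 66.7, 83.9 and 133 CPM in WT Mono. The iHPC and the TLR7.1 RPM libraries lay below all Mono libraries, and in WT RPM 1 library, that of mouse 24117 and the deepest of its group, lay among the WT Mono libraries. The counts behind these levels were few in iHPC and RPM, 83 in the 6 iHPC libraries together and 161 in TLR7.1 RPM, against 1072 in TLR7.1 Mono. The highest iHPC value came from the shallow library of mouse 24380. The iHPC library of mouse 24304, with 1420486 counts, had 20.1 CPM, and the shallowest TLR7.1 Mono library, with 1157446 counts, had 80.2 CPM.

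The comparison of TLR7.1 iHPC with TLR7.1 Mono of the same mice asks how the hemophagocytes differ from Ly6C+ monocytes. Ciita and both H2-DM chains were lower in iHPC, and 5 of the 7 members were called lower in all, where 19.4% of all genes tested were called lower and 38.7% in either direction. Ciita averaged 16.1 ± 11.6 CPM in iHPC and 113 ± 24.5 CPM in Mono (SD, n = 6 each), a log2 fold change of -2.97 ± 0.52 (SE; adjusted p = 2.09e-05, edgeR). H2-DMb1 averaged 122 ± 44.9 CPM in iHPC and 406 ± 19.7 CPM in Mono (-1.71 ± 0.27, adjusted p = 5.97e-06, edgeR), and H2-DMa averaged 275 ± 89.7 CPM in iHPC and 613 ± 32.4 CPM in Mono (-1.14 ± 0.23, adjusted p = 0.000206, edgeR). For these 3 genes the groups did not overlap, a separation that 17.8% of all genes tested showed in this direction. Each was lower in iHPC in 6 of 6 mice and so on each of the 3 collection dates, and was called under all 27 alternatives run.

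Of the remaining members Cd74 and H2-Ab1 were called lower. Cd74 averaged 851 ± 337 CPM in iHPC and 1321 ± 165 CPM in Mono (-0.63 ± 0.21, adjusted p = 0.0163, edgeR), and H2-Ab1 averaged 689.5 ± 272 CPM in iHPC and 1067 ± 96.7 CPM in Mono (-0.62 ± 0.24, adjusted p = 0.0359, edgeR), each lower in 5 of 6 mice. Both calls were lost without mouse 24380, whose iHPC library held 292507 counts, and that of H2-Ab1 was lost in 8 of the 12 fits that each left out 1 mouse. Without mouse 24380 the log2 fold change of Cd74 was -0.36 (adjusted p = 0.12) and that of H2-Ab1 -0.38 (adjusted p = 0.195). H2-Aa (-0.47, adjusted p = 0.145) and H2-Eb1 (-0.22, adjusted p = 0.491) did not pass the test. Their intervals ran from -0.96 to 0.03 for H2-Aa and from -0.68 to 0.24 for H2-Eb1.

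**Figure D2:**
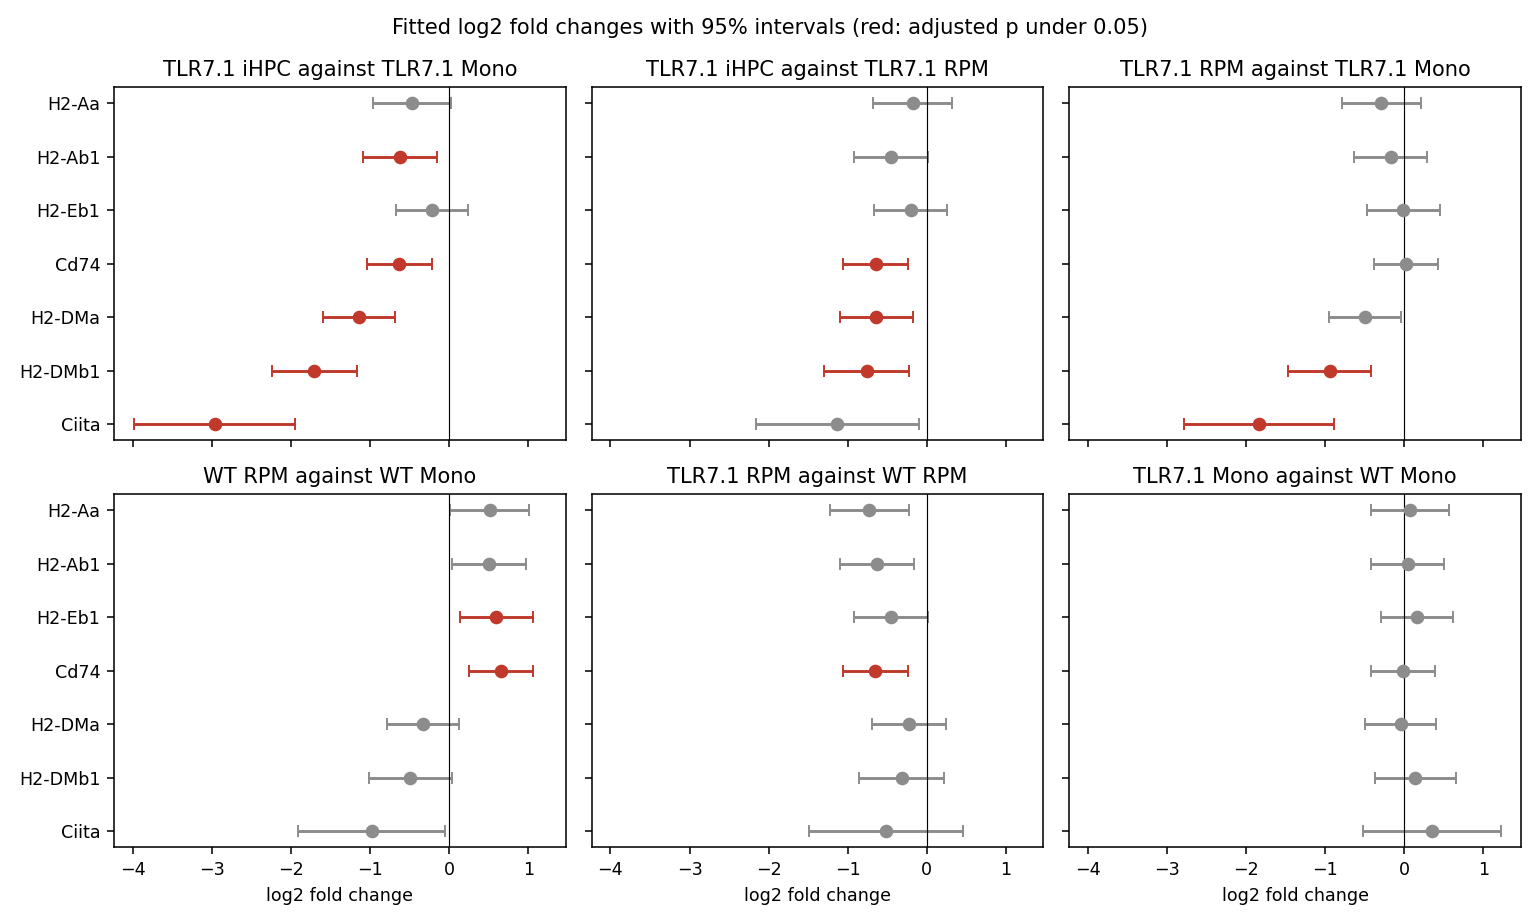
Fitted log2 fold change (horizontal axis) of the 7 class II genes in 6 comparisons, 1 panel each, with 95% intervals; red marks an adjusted p under 0.05 (edgeR). In TLR7.1 iHPC against TLR7.1 Mono the largest changes are those of Ciita (-2.97), H2-DMb1 (-1.71) and H2-DMa (-1.14); in TLR7.1 Mono against WT Mono all 7 values lie between -0.05 and 0.34.

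Against TLR7.1 RPM of the same mice, Cd74 and both H2-DM chains were lower in TLR7.1 iHPC. In this comparison 3 of the 7 members were called lower, where 13.5% of all genes were called lower and 27.1% in either direction. Cd74 averaged 851 ± 337 CPM in iHPC and 1332 ± 412 CPM in RPM (-0.64 ± 0.21, adjusted p = 0.0192, edgeR) and was lower in iHPC in 6 of 6 mice. H2-DMb1 averaged 122 ± 44.9 CPM in iHPC and 205 ± 124 CPM in RPM (-0.76 ± 0.27, adjusted p = 0.0362, edgeR; lower in 4 of 6 mice), and H2-DMa averaged 275 ± 89.7 CPM in iHPC and 428 ± 190 CPM in RPM (-0.64 ± 0.23, adjusted p = 0.0412, edgeR; lower in 5 of 6 mice). The groups overlapped for all 3 genes. With the mouse as a block Cd74 stayed called (-0.66, adjusted p = 0.0164), and H2-DMa (-0.59, adjusted p = 0.0697) and H2-DMb1 (-0.68, adjusted p = 0.0656) were lost, where 11.9% of genes were called lower.

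The count of members called in iHPC against RPM moved with the libraries used. Without the 5 libraries under 500000 counts all 7 members were called lower in iHPC, where 13.6% of genes were, with log2 fold changes from -0.47 for H2-Aa to -1.52 for Ciita. None was called without mouse 24261 or without mouse 24308, where Cd74 stood at -0.54 in both fits (adjusted p = 0.0974 and 0.099). The call of H2-DMb1 was also lost without mouse 24107 or 24415, and that of H2-DMa in 8 of the 12 fits that left out 1 mouse. The mean differences by collection date (log2 of CPM + 1) for Cd74 were -0.18 on 13 December, -0.75 on 21 December and -1.16 on 26 December. For H2-DMa they were 0.18, -0.58 and -1.28 on these dates, with 2 mice per date.

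B cell markers moved with this comparison. The 17 B cell markers summed to 947 to 1879 CPM in TLR7.1 iHPC, with a median of 1681 CPM, and to 1862 to 4833 CPM in TLR7.1 RPM, with a median of 4130 CPM. Of them 10 were called lower in iHPC and none higher, and no marker was at 0 in all libraries of a group. With this sum as a covariate none of the 7 members was called in iHPC against RPM, where Cd74 stood at -0.54 (adjusted p = 0.167), H2-DMa at -0.21 (adjusted p = 0.645) and H2-DMb1 at -0.12 (adjusted p = 0.846), while in iHPC against Mono the 3 leading genes stayed called. In TLR7.1 Mono the sum was lower still, 588 to 933 CPM with a median of 715 CPM, so the lower Ciita and H2-DM levels of iHPC against Mono stood beside a higher B cell sum in iHPC. The 8 plasma cell markers did not follow the B cell order, with medians of 586 CPM in TLR7.1 iHPC, 2469 CPM in TLR7.1 RPM and 714 CPM in TLR7.1 Mono. The B cell sum nearly separated iHPC from RPM and fully separated iHPC from Mono, so these fits can hardly tell it from the group. A call lost or kept with this covariate therefore does not show the part of such RNA in the class II values, which was not tested.

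Dendritic cells carry much class II, and their markers were followed for that reason. The 17 dendritic cell markers summed to medians of 736 CPM in TLR7.1 iHPC, 796 CPM in TLR7.1 RPM, 933 CPM in TLR7.1 Mono, 823 CPM in WT RPM and 1174 CPM in WT Mono. Siglech was at 0 in all 30 libraries, and Ccr9 was at 0 in all iHPC libraries. Of the 17 markers 14 were tested, and 3 were called higher and 6 lower in iHPC in each comparison, against RPM and against Mono. Flt3, a growth factor receptor of dendritic cells and their precursors, averaged 0.136 CPM in TLR7.1 iHPC, 6.84 CPM in TLR7.1 RPM, 20.2 CPM in TLR7.1 Mono, 4.53 CPM in WT RPM and 55.9 CPM in WT Mono. Zbtb46, a transcription factor of classical dendritic cells, averaged 3.19 CPM in TLR7.1 iHPC, 13.1 CPM in TLR7.1 RPM, 6.45 CPM in TLR7.1 Mono, 12.7 CPM in WT RPM and 4.33 CPM in WT Mono. Other markers had another order: Xcr1 averaged 62.8 CPM in TLR7.1 iHPC and 3.69 CPM in TLR7.1 Mono, and Esam 88.4 CPM in TLR7.1 iHPC and 0.202 CPM in TLR7.1 Mono. Cd209a averaged 6.47 CPM in TLR7.1 iHPC, 191 CPM in TLR7.1 Mono and 367 CPM in WT Mono. Several listed markers are also made by monocytes or macrophages, such as Batf3, at 310.2 CPM in TLR7.1 iHPC and 102 CPM in TLR7.1 Mono. With the dendritic cell sum as a covariate, Ciita and both H2-DM chains stayed called lower in iHPC than in Mono.

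In TLR7.1 RPM against TLR7.1 Mono, Ciita and H2-DMb1 were lower in RPM and the chains and Cd74 did not pass the test. This comparison and those with iHPC share their libraries. Of the 7 members 2 were called lower, where 22.6% of all genes were called lower and 46.6% in either direction. Ciita averaged 30.7 ± 20.7 CPM in RPM and 113 ± 24.5 CPM in Mono (-1.84, adjusted p = 0.00214, edgeR), and H2-DMb1 averaged 205 ± 124 CPM in RPM and 406 ± 19.7 CPM in Mono (-0.95, adjusted p = 0.00411, edgeR). Both were lower in RPM in 6 of 6 mice, without overlap, as were 14.6% of all genes. The call of Ciita held under all 27 alternatives, and that of H2-DMb1 was lost with the log2 library total as a covariate (-0.50, adjusted p = 0.111). H2-DMa (-0.50, adjusted p = 0.0743) was called with the mouse as a block (-0.61, adjusted p = 0.0347), which made 3 called lower, where 24.1% of genes were. Of the 17 B cell markers 16 were called higher in TLR7.1 RPM than in TLR7.1 Mono and none lower, with median sums of 4130 CPM in RPM and 715 CPM in Mono. With the B cell sum as a covariate Ciita and H2-DMb1 stayed called lower, at -3.82 and -2.20, and H2-DMa was called at -1.34 (adjusted p = 0.0174). The sum did not overlap between these 2 groups, so this fit can hardly tell it from the group. With the dendritic cell sum H2-DMa was called at -0.73 (adjusted p = 0.0147).

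In WT mice Cd74 and H2-Eb1 were higher in RPM than in Mono. Of the 7 members 2 were called higher in WT RPM, where 23.7% of all genes were called higher and 46.2% in either direction. Cd74 averaged 2113 ± 547 CPM in WT RPM and 1332 ± 198 CPM in WT Mono (0.66 ± 0.21, adjusted p = 0.00993, edgeR; higher in 6 of 6 mice), and H2-Eb1 averaged 952 ± 182.5 CPM in WT RPM and 635 ± 119.6 CPM in WT Mono (0.60, adjusted p = 0.0382, edgeR; higher in 5 of 6 mice). H2-Aa was 1176 ± 79.1 CPM in WT RPM and 825 ± 114 CPM in WT Mono, higher in 6 of 6 mice without overlap, as were 11.1% of all genes, and its adjusted p was 0.0987. Without mouse 24415 no member was called, with adjusted p = 0.0558 for Cd74 and 0.127 for H2-Eb1, and the call of H2-Eb1 was lost in 6 of the 12 fits that left out 1 mouse. Of the 17 B cell markers 10 were called higher in WT RPM than in WT Mono and none lower, with median sums of 1560 CPM in WT RPM and 1022 CPM in WT Mono. With this sum as a covariate Cd74 stayed called (0.61, adjusted p = 0.0238), H2-Eb1 was lost (0.33, adjusted p = 0.285), and H2-DMa (-0.60, adjusted p = 0.0462), H2-DMb1 (-0.90, adjusted p = 0.00963) and Ciita were called lower in WT RPM. With the dendritic cell sum both Cd74 (0.43, adjusted p = 0.18) and H2-Eb1 (0.44, adjusted p = 0.236) were lost, and H2-DMa was called lower (-0.70, adjusted p = 0.0433).

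Ciita in WT RPM against WT Mono did not pass the test, and its call moved with the setting. It averaged 39.3 ± 43.6 CPM in WT RPM and 89.4 ± 25.4 CPM in WT Mono (-0.98, adjusted p = 0.0896, edgeR) and was lower in RPM in 5 of 6 mice. Without mouse 24117 the log2 fold change was -1.79 (adjusted p = 0.00451), and with the mouse as a block it was -1.47 (adjusted p = 0.0243). The block thus added 1 member called lower, where 23.8% of genes were, and Cd74 and H2-Eb1 stayed called higher. Ciita was also called in limma-voom (-1.22, adjusted p = 0.0352) and with the B cell sum as a covariate (-1.95, adjusted p = 0.00929). The RPM library of mouse 24117 also had the highest B cell sum of its group, 3377 CPM, and the highest H2-DMb1, 425 CPM.

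In TLR7.1 Mono, Cd74 and H2-Ab1 lay close to the highest read density found in a library. The densest gene of a library had a median of 1.64 counts per base of the principal transcript in TLR7.1 Mono and 1.77 in WT Mono. Cd74 stood at a median of 1.44 in TLR7.1 Mono and 1.42 in WT Mono. In the deepest WT RPM library, that of mouse 24117, Cd74 was itself the densest gene, at 1.64. H2-Ab1 stood at 1.37 in TLR7.1 Mono and 1.29 in WT Mono. In TLR7.1 iHPC Cd74 stood at 0.70 and in WT RPM at 0.79, while H2-DMb1 stayed at or below 0.53 and Ciita below 0.04 in every library. Whether the density has a part in the Cd74 and chain values of the deep libraries was not tested. With all libraries thinned to 95002 counts, Cd74 was 0.93 higher in WT RPM than in WT Mono on the log2 scale. Thinning draws at random from the deposited counts, so any effect of density stays in them and is not tested by it.

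**Figure D3:**
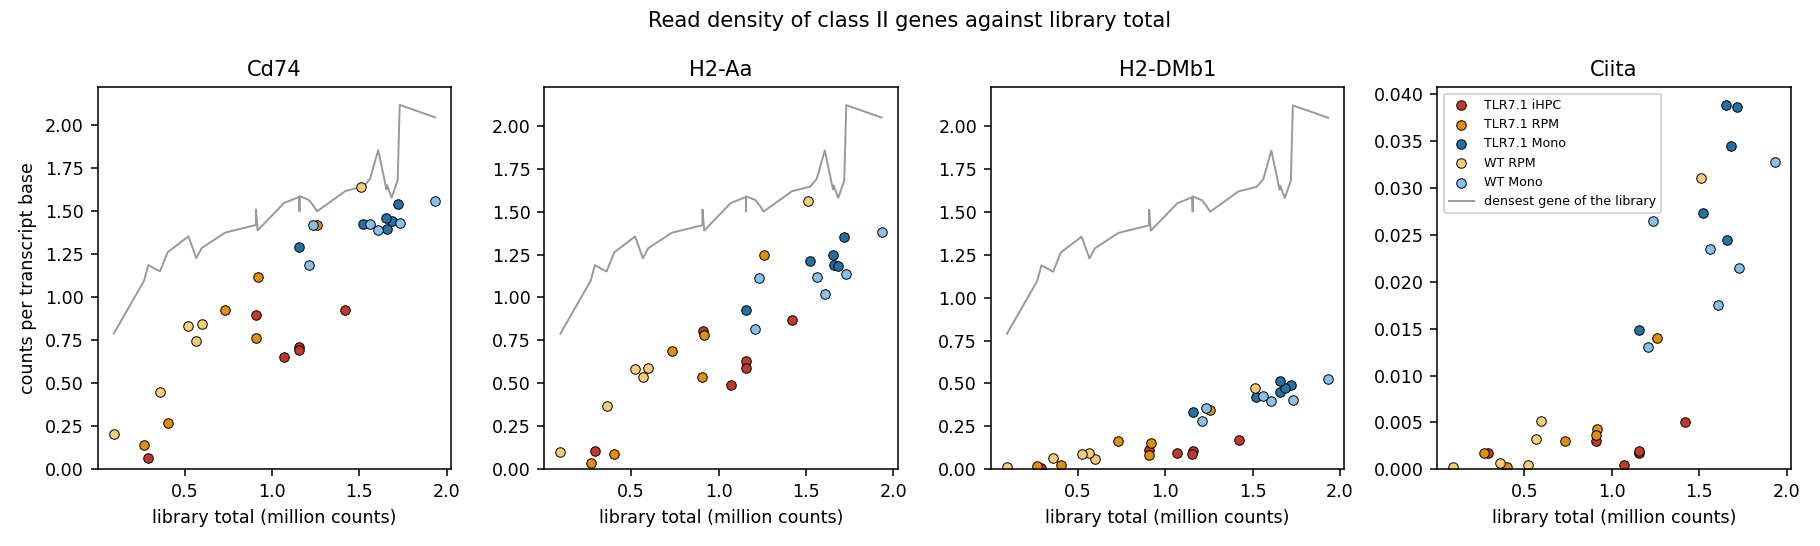
Counts per transcript base (vertical axis, own scale per panel) of Cd74, H2-Aa, H2-DMb1 and Ciita against the library total in counts (horizontal axis, scaled as labelled) for the 30 libraries, coloured by group; the grey line in the first 3 panels is the densest gene of each library. Cd74 in TLR7.1 Mono libraries lies close under the grey line, and in several WT Mono libraries further below it (mouse 24416, 1.43 against 2.12). At like totals the TLR7.1 iHPC libraries hold fewer H2-DMb1 and Ciita counts per base than the Mono libraries.

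Between genotypes, no member was called in Mono. In TLR7.1 Mono against WT Mono 0 of the 7 members were called, at an unadjusted p under 0.05 also 0, and DESeq2 and limma-voom called 0, where edgeR called 2.1% of all genes. The log2 fold changes ran from -0.05 for H2-DMa to 0.34 for Ciita. The intervals ran from -0.42 to 0.39 for Cd74 and from -0.53 to 1.22 for Ciita.

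In RPM Cd74 was lower in TLR7.1 mice, and it was the 1 member of 7 called, where 3.77% of all genes were called lower and 8.25% in either direction. Cd74 averaged 1332 ± 412 CPM in TLR7.1 RPM and 2113 ± 547 CPM in WT RPM (-0.65 ± 0.21, adjusted p = 0.0472, edgeR). H2-Aa averaged 702 ± 404.5 CPM in TLR7.1 RPM and 1176 ± 79.1 CPM in WT RPM (-0.73, adjusted p = 0.0722), and H2-Ab1 averaged 941 ± 435 CPM in TLR7.1 RPM and 1473 ± 179.6 CPM in WT RPM (-0.63, adjusted p = 0.0958). The call of Cd74 held in 9 of 26 alternatives and was lost without the libraries under 300000 counts (-0.37, adjusted p = 0.159) and in 8 of the 12 fits that left out 1 mouse. Without mouse 24323, whose RPM library was the shallowest, it stood at -0.48 (adjusted p = 0.188). By collection date its difference (log2 of CPM + 1) was -0.50, -1.13 and -0.75 on 13, 21 and 26 December, with 2, 1 and 3 WT mice. Of the 17 B cell markers 2 were called higher in TLR7.1 RPM than in WT RPM and none lower, and the sum had a median of 4130 CPM in TLR7.1 RPM and 1560 CPM in WT RPM.

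The difference between genotype effects, RPM less Mono, was called for 0 of the 7 members (edgeR), where 0.689% of all genes were. At an unadjusted p under 0.05 it held 2, H2-Aa (-0.80, adjusted p = 0.391) and Cd74 (-0.64, adjusted p = 0.413), and DESeq2 and limma-voom called 0.

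Ratios between members are given as descriptions, with no test. Per transcript length, the sum of the H2-DM chains over the sum of the I-A chains was 0.224 ± 0.036 in TLR7.1 iHPC and 0.4 ± 0.019 in TLR7.1 Mono, and TLR7.1 RPM had 0.306 ± 0.086 (SD, n = 6 each). It was 0.218 ± 0.068 in WT RPM and 0.410 ± 0.031 in WT Mono. In iHPC it ran from 0.17 to 0.271 and in TLR7.1 Mono from 0.377 to 0.423, without overlap. H2-Eb1 over the I-A chains was 0.338 ± 0.071 in iHPC and 0.258 ± 0.021 in TLR7.1 Mono. Cd74 over the I-A chains was 0.528 ± 0.081 in iHPC and 0.566 ± 0.030 in TLR7.1 Mono, with overlap. The I-A chains, on which these ratios rest, lay nearer the highest read density in Mono than in iHPC by the group medians. The part of read density in the ratios was not tested. Over the 30 libraries Pearson's r of log2(CPM + 1) was 0.90 between H2-Ab1 and Cd74, 0.89 between H2-DMa and H2-DMb1, and 0.08 between Cd74 and Ciita, as a description of libraries that share depth and group.

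Genes outside the list with the most similar pattern were found by Pearson correlation over the 30 libraries. Closest to the mean of the 3 chains and Cd74 were Arl8b (r = 0.78), a lysosomal small GTPase, Bmyc (0.755), Lefty1 (0.747), Sugp1 (0.739) and Ccl24 (0.732). Arl8b averaged 187 CPM in TLR7.1 iHPC and 269 CPM in WT RPM. Closest to Ciita were Ccdc125 (0.86), Pex19 (0.857), Tifa (0.851), Cyp4f18 (0.849) and Olfm1 (0.832). Ccdc125 averaged 2.41 CPM in TLR7.1 iHPC and 88.8 CPM in TLR7.1 Mono.

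Partners of H2-DM that B cells express strongly were followed beside the members. H2-Oa and H2-Ob encode H2-O, an inhibitor of H2-DM. H2-Ob averaged 30.9 ± 18.3 CPM in TLR7.1 iHPC, 100.2 ± 80.8 CPM in TLR7.1 RPM and 10.0 ± 8.22 CPM in TLR7.1 Mono. It was higher in iHPC than in Mono (1.69, adjusted p = 0.0457, edgeR) and lower than in RPM (-1.67, adjusted p = 0.0485). H2-DMb2 averaged 24.9 ± 14.9 CPM in TLR7.1 iHPC, 84.9 ± 62.0 CPM in TLR7.1 RPM and 31.1 ± 6.5 CPM in TLR7.1 Mono, lower in iHPC than in RPM (-1.73, adjusted p = 0.0044) and not called against Mono (-0.24, adjusted p = 0.712). H2-Oa averaged 23.1 ± 13.1 CPM in TLR7.1 iHPC and 56.5 ± 44.6 CPM in TLR7.1 RPM, and was not called between them (adjusted p = 0.152). In TLR7.1 RPM against TLR7.1 Mono, where H2-DMb1 was lower, its near copy H2-DMb2 was called higher (1.49, adjusted p = 0.00656, edgeR). H2-Oa (2.05) and H2-Ob (3.37) were also called higher there.

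**Figure D4:**
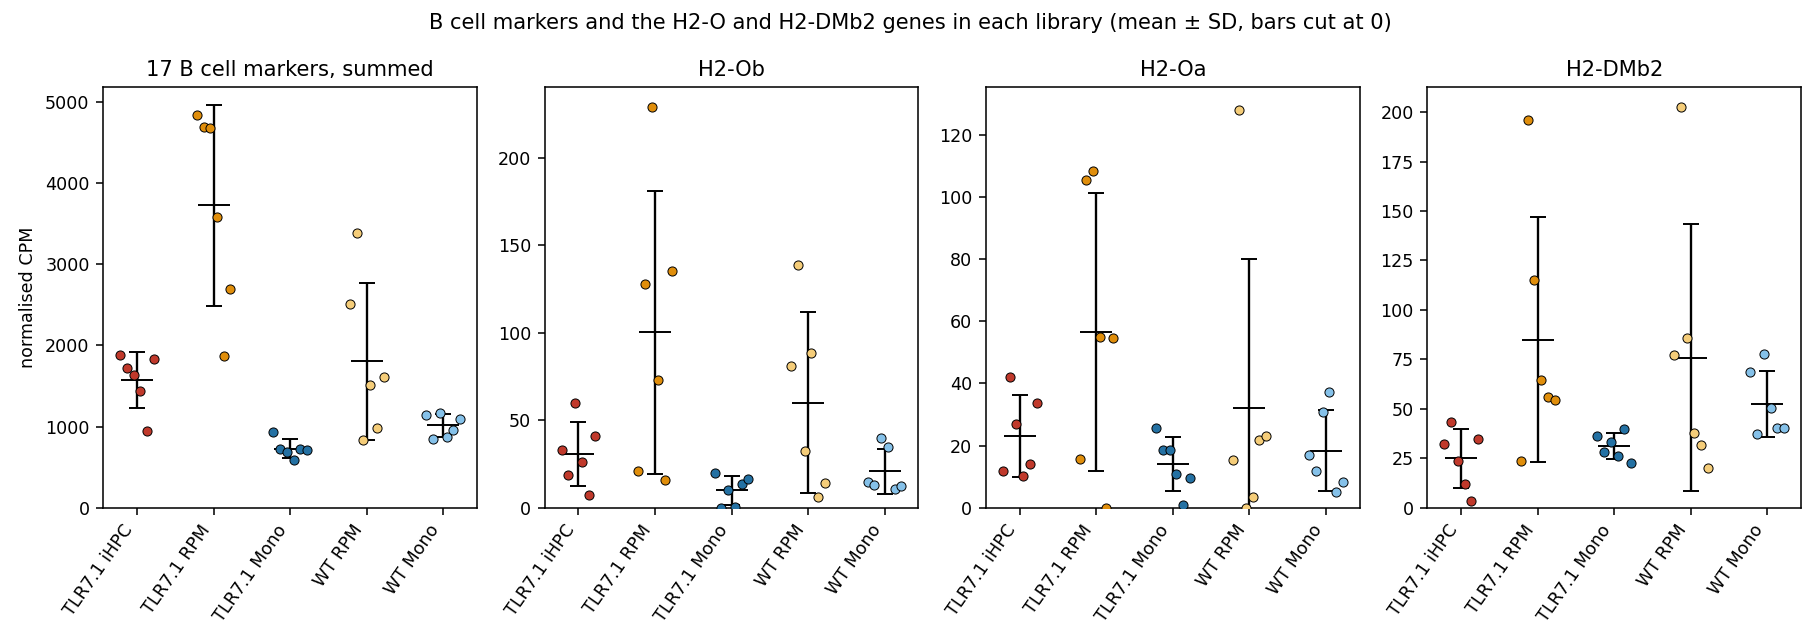
Normalised CPM (vertical axis, own scale per panel) of 17 B cell markers summed and of H2-Ob, H2-Oa and H2-DMb2 in the 30 libraries by group; bars are mean ± SD, cut at 0. In all 4 panels TLR7.1 RPM has the highest mean, and its libraries spread widely, for H2-Ob from 15.9 to 229 CPM.

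Genes that act around class II moved in both directions. Of 34 other class II pathway genes, 33 were tested, and H2-Eb2 did not pass the filter, with 53 counts in all libraries together. In iHPC against Mono 8 were called higher and 11 lower, where 38.7% of all genes were called in either direction, with a median log2 fold change of -0.07 over the 33 against 0.01 over all genes. In iHPC against RPM 5 were called higher and 12 lower, where 27.1% of all genes were called, with a median of -0.11 against -0.01 over all genes. In TLR7.1 RPM against TLR7.1 Mono and in WT RPM against WT Mono 12 were called higher and 9 lower, where 46.6% and 46.2% of all genes were called.

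Of the lysosomal enzymes named here, Ctsl and Ifi30 were lower in iHPC than in RPM. Ctss, the protease that completes invariant chain removal, did not differ beyond the test between iHPC, at 1539.5 ± 319.9 CPM, and RPM, at 1723 ± 472 CPM (-0.16, adjusted p = 0.545). Ctsl, another lysosomal cathepsin, averaged 247 ± 25.8 CPM in iHPC and 475 ± 111 CPM in RPM (-0.95, adjusted p = 6.46e-05, edgeR). Ifi30, the lysosomal thiol reductase GILT, averaged 377 ± 33.9 CPM in iHPC, 564 ± 71.0 CPM in RPM and 581.5 ± 47.2 CPM in TLR7.1 Mono (-0.58 against RPM and -0.63 against Mono, adjusted p = 0.000611 and 0.000134). For Ctsl and Ifi30 iHPC and RPM did not overlap. Ctsl was also higher in TLR7.1 Mono, at 223 ± 54.4 CPM, than in WT Mono, at 119.0 ± 22.7 CPM (0.91, adjusted p = 0.00108).

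Cd40, Cd80 and Cd86 encode co-stimulatory proteins that act beside class II in contacts with T cells. Cd40 averaged 17.3 ± 5.54 CPM in iHPC and 268 ± 26.4 CPM in TLR7.1 Mono (-3.91, adjusted p = 8.64e-11, edgeR), without overlap. In TLR7.1 RPM it averaged 14.3 ± 13.7 CPM and was not called against iHPC (0.15, adjusted p = 0.816). Cd80 averaged 3.57 ± 3.73 CPM in iHPC, 18.5 ± 11.5 CPM in TLR7.1 RPM and 20.8 ± 7.59 CPM in TLR7.1 Mono (-2.21 against RPM and -2.40 against Mono, adjusted p = 0.00538 and 0.00132). Between RPM and Mono Cd80 was not called in TLR7.1 mice (adjusted p = 0.792) or in WT mice (adjusted p = 0.855). Cd86 averaged 231 ± 77.2 CPM in iHPC, 482 ± 101.0 CPM in RPM and 151 ± 22.9 CPM in Mono, lower than in RPM (-1.05, adjusted p = 3.49e-05) and higher than in Mono (0.62, adjusted p = 0.00655). Cd86 was lower in TLR7.1 RPM than in WT RPM, at 750.2 ± 134.0 CPM (-0.64, adjusted p = 0.0229).

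Il10 and the factors Irf4 and Irf8 changed strongly between populations. Il10, an anti-inflammatory cytokine, averaged 155 ± 37.4 CPM in TLR7.1 iHPC, 12.2 ± 13.3 CPM in TLR7.1 RPM and 0.306 ± 0.514 CPM in TLR7.1 Mono, where it rested on 3 counts in 6 libraries. It was higher in iHPC than in RPM (3.98, adjusted p = 4.56e-05, edgeR) and than in Mono, where the fitted 8.47 rests on those 3 counts. Irf8, a transcription factor of monocytes and dendritic cells, averaged 95.9 ± 23.4 CPM in iHPC, 455 ± 130.0 CPM in RPM and 367 ± 35.8 CPM in Mono (-2.27 against RPM, adjusted p = 1.04e-11), without overlap with either. Irf4, its relative, averaged 3.02 ± 1.30 CPM in iHPC, 27.4 ± 30.5 CPM in RPM and 35.9 ± 15.3 CPM in Mono (-3.22 against RPM and -3.55 against Mono, adjusted p = 0.000988 and 0.000169). Irf4 rested on 18 counts in the 6 iHPC libraries. Its iHPC libraries overlapped those of RPM, which ran from 0 to 77.5 CPM.

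Cd83, which steadies class II at the surface, moved with both population and genotype. It averaged 230.2 ± 43.8 CPM in iHPC, 116 ± 36.8 CPM in TLR7.1 RPM and 55.8 ± 38.8 CPM in TLR7.1 Mono (0.97 against RPM and 2.05 against Mono, adjusted p = 0.014 and 1.75e-06, edgeR). In TLR7.1 RPM it was lower than in WT RPM, at 450.1 ± 91.1 CPM (-1.95, adjusted p = 0.000133), and in TLR7.1 Mono lower than in WT Mono, at 145 ± 46.5 CPM (-1.37, adjusted p = 0.00543). Ifngr1, a chain of the interferon gamma receptor, averaged 316.5 ± 39.9 CPM in TLR7.1 RPM and 581 ± 110.7 CPM in WT RPM (-0.88, adjusted p = 0.000135). It was the 1 gene of the list called in the difference of genotype effects (-0.77, adjusted p = 0.0464). In RPM against Mono the leading genes of the list were March8, a ubiquitin ligase (3.69 in TLR7.1 and 3.63 in WT), and Il10 on the higher side, the fit of Il10 resting on 3 counts in the 6 Mono libraries of each genotype, and Cd40 (-4.07 and -3.19), Ifngr1 (-1.62 in TLR7.1) and Irf4 (-2.35 in WT) on the lower.

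Class I presentation genes, which show peptides made in the cell's cytosol, were the second list. Of 16 listed 15 were tested, and Psmb9 was not analysed here. The counts below stand beside 38.7% of all genes called in iHPC against Mono, 27.1% in iHPC against RPM, 46.6% in TLR7.1 RPM against Mono and 46.2% in WT RPM against Mono. In iHPC against Mono 2 were called higher, Canx (0.82) and B2m (0.79), and 2 lower, Tapbp (-0.73) and Psmb10 (-0.43). In iHPC against RPM Erap1 (0.76) was called higher and Tapbp (-0.57) and Calr (-0.44) lower. Nlrc5, the class I counterpart of Ciita, averaged 63.3 ± 48.2 CPM in TLR7.1 iHPC and 68.3 ± 24.5 CPM in TLR7.1 Mono and was not called (-0.11, adjusted p = 0.848, edgeR). Its difference from the change in Ciita was not tested. In RPM against Mono 5 were called higher in each genotype, led by B2m (1.10 in TLR7.1 and 1.53 in WT) and Canx (1.06 and 1.27), and Erap1 was lower in TLR7.1 (-0.75).

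For 3 members, reads in exons shared with another gene cannot be told apart. The microRNA gene Mir5107 overlaps Cd74 on the same strand. Exons of Dexi overlap those of Ciita and exons of Brd2 overlap those of H2-DMa, each on the opposite strand, and the strand setting of the counting is not given in the sources used here. Dexi averaged 17.2 ± 9.69 CPM in TLR7.1 iHPC and 41.8 ± 11.7 CPM in TLR7.1 Mono (-1.38, adjusted p = 0.00985, edgeR). In TLR7.1 RPM it averaged 15.5 ± 8.12 CPM and was likewise lower than in TLR7.1 Mono (-1.36, adjusted p = 0.00926, edgeR). Brd2 was not called in iHPC against Mono (0.36, adjusted p = 0.262). How far shared reads move Ciita with Dexi was not tested.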

How the data were processed

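RNA of 500 sorted cells per library was amplified with SMART-Seq v4 and made into libraries with Nextera XT, per the labels' protocols. The authors deposited 1 table of raw counts per gene for all 30 libraries. CASAVA 1.8.2, Bowtie, TopHat, Picard, SAMtools, FastQC and HTSeq 0.4.1, and the build NCBIM37, are named in the submitters' processing notes; for strand setting, duplicate handling and annotation release nothing was given in the sources used here. Gene symbols and member positions came from the GENCODE M21 annotation of GRCm38, a later build; 32919 of 37991 identifiers had a symbol and held 99.11% of counts.

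Genes passing filterByExpr were fitted in edgeR 4.0.16 (TMM scaling, robust quasi-likelihood, 5 groups and 30 libraries sharing one estimate of the spread) with Benjamini-Hochberg adjustment over 11030 genes. Tools were R 4.3.3, limma 3.58.1, DESeq2 1.42.0 and Python 3.11.15. The fit was tested on simulated data. Library totals of 95002 to 1932427 counts limit the precision of Ciita most. Levels per length used the principal transcript, and log2 CPM values a pseudocount of 1. Reads carry no molecular identifiers.

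The members and lists were chosen with earlier results of these data known. Named genes were the 7 members, H2-DMb2, H2-Oa, H2-Ob, Ctss, Ctsl, Ifi30, Nlrc5, Cd86, Cd80 and Cd40, the 2 called genes of largest change in each direction per list and comparison, and the 5 genes most like the chains with Cd74 and most like Ciita. Marker genes, Dexi and Brd2 were named as checks, and Cd86 in RPM between genotypes was named because its levels were already given.

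The labels name the mouse of each library, so populations of 1 mouse are pairs by design. Residuals of paired libraries correlated from -0.08 to 0.194, over 0.1 in 2 of 24 pairs, and the consensus correlation in limma-voom was 0.047. Up to 27 alternatives were run per comparison: other scalings, filters, tools and sample sets, thinning, the mouse as a block, collection date and marker sums as covariates, and each mouse left out. Removing libraries under 300000 or 500000 counts, removing 1 iHPC library and using the library total as a covariate were chosen after seeing the data.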

Additional observations from a re-analysis of the deposited data

Results flagged for a closer look

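In 4 of 35 sets of 6 libraries (7 members in 5 groups) 1 library stood apart from the others by Dixon's criterion, a gap to the nearest library above the 95% critical share of the range, where chance gives about 1 in 20. In TLR7.1 Mono the library of mouse 24380 was the highest for 3 members, with 1251.7 CPM for H2-Ab1 (gap 0.629 of the range), 676.8 CPM for H2-DMa (0.723) and 1646.4 CPM for Cd74 (0.727). That library was the shallowest of its group, at 1157446 counts. In WT Mono the library of mouse 24323 was the highest for H2-Aa, at 1047.8 CPM (0.722).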

How the results depend on the processing

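Of 1309 alternative values for 49 member comparisons, 1140 kept direction and side of the threshold, 78 lost a call, 43 gained one and 48 changed sign, none of these with a call on either side. H2-DMa, H2-DMb1 and Ciita in iHPC against Mono and Ciita in TLR7.1 RPM against TLR7.1 Mono were called under every alternative run, and 23 values were called under none. The cause of the changes below was not tested.

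Members called in iHPC against RPM (3) became 1 with library totals, no filter, the mouse as a replicate block or without the iHPC library of mouse 24261, 0 with the groups compared alone or the B cell sum, 7 without libraries under 500000 counts, and 0 to 4 with a mouse left out. In iHPC against Mono (5) they became 3 with upper-quartile scaling and 3 to 6 with a mouse left out. In TLR7.1 RPM against WT RPM (1) they became 2 with DESeq2 or the library total as a covariate, 0 with library totals, no filter, the groups compared alone, the B cell sum, limma-voom with the mouse as a random block, without libraries under 300000 or 500000 counts or without that iHPC library, and 0 to 2 with a mouse left out. In TLR7.1 RPM against TLR7.1 Mono (2) they became 1 with the library total and 2 to 3 with a mouse left out. In WT RPM against WT Mono (2) they became 1, Cd74 higher, with DESeq2, no filter or without that iHPC library, and 1, H2-DMa lower, with the dendritic cell sum. They became 4, all higher, with upper-quartile scaling, the groups compared alone or without libraries under 500000 counts, 4 with the B cell sum, of which Cd74 was higher and 3 (H2-DMa, H2-DMb1 and Ciita) lower, 5 with limma-voom (4 higher and Ciita lower), and 0 to 3 with a mouse left out. The block changed no other count of members by over 1.5 times.

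Sign changes, as log2 fold changes, were as follows. With the B cell sum, H2-Aa stood at 0.213 and H2-Eb1 at 0.265 in iHPC against RPM, H2-DMa at 0.126 and Cd74 at 0.031 between genotypes in Mono, and Cd74 at -0.190 in TLR7.1 RPM against Mono. With the dendritic cell sum, H2-Aa stood at -0.025, H2-Ab1 at -0.106 and H2-DMb1 at -0.009 between genotypes in Mono, and Cd74 at -0.112 in TLR7.1 RPM against Mono. Thinned, H2-DMa stood at 0.022 and Cd74 at 0.049 between genotypes in Mono and H2-Eb1 at 0.091 in TLR7.1 RPM against Mono. With DESeq2, Cd74 stood at 0.001 between genotypes in Mono and -0.042 in TLR7.1 RPM against Mono. In that last comparison, H2-Aa stood at 0.113, H2-Ab1 at 0.168 and H2-Eb1 at 0.338 without libraries under 500000 counts. There H2-Eb1 also stood at 0.143 without those under 300000, 0.017 with library totals, 0.080 with upper-quartile scaling, 0.063 with the groups compared alone, 0.011 without the iHPC library of mouse 24261 and 0.285 with the library total, and Cd74 at -0.054 with no filter and -0.066 with the block. With the library total, H2-Eb1 stood at 0.013 in iHPC against Mono, and H2-DMa at 0.155 and H2-DMb1 at 0.15 in WT RPM against Mono.

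With each mouse left out, ranges that crossed 0 were -0.327 to 0.030 for H2-Aa in iHPC against RPM, -0.021 to 0.119 for H2-Ab1 and -0.099 to 0.055 for Cd74 between genotypes in Mono, and -0.942 to 0.323 for Ciita between genotypes in RPM. In TLR7.1 RPM against Mono they were -0.306 to 0.027 for H2-Ab1, -0.199 to 0.190 for H2-Eb1 and -0.114 to 0.228 for Cd74. Upper-quartile scaling moved the median of all genes by 0.109 in iHPC against Mono, 0.1 in TLR7.1 RPM against Mono and 0.104 in WT RPM against Mono. Depth limits Ciita in iHPC and RPM, where few counts were read.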
